A study of Apeltes quadracus with 85 samples.

Results

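The third dorsal spine (DS3) was compared with the second dorsal spine (DS2) of the same fry in the fourspine stickleback Apeltes quadracus. The comparison uses every library titled as either spine, which is 22 of the 85 libraries of the series, 11 of DS3 and 11 of DS2, paired within 11 fish. The fish carried 2 different haplotypes of the HOXDB gene cluster and were 4 H/L, 3 H/LHR and 4 L/LHR animals. H tags fish with many dorsal spines in the study's association mapping, L tags fish with few, and LHR combines segments of L and H. No fish of these libraries was homozygous, so each carried at least 1 of L and LHR. All were F1 fry of laboratory clutches from the Louisbourg population, made by in vitro fertilisation and kept in 10% seawater at 16 °C in a petri dish. They were taken at stage 31 (the finfold stage) at a length of 11 to 13 mm. The haplotypes were assigned by the study at a pair of markers, and the clutch of each fish is not given in the sources used here.

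HOX genes encode homeodomain transcription factors that lie in clusters on the chromosome and are used along the head-to-tail axis in overlapping domains. Genes at one end of a cluster act in more posterior regions, and fish hold extra clusters, HOXDB among them, from a duplication of the whole genome. HOXD9B and HOXD11B, the genes measured here, belong to the posterior type of HOX gene. In sticklebacks the dorsal spines stand in a row along the midline on bones called pterygiophores, and DS2 lies anterior to DS3. The comparison asks which transcribed regions differ in level, or in the ratio of their alleles, between these neighbours. That HOXDB reads increase at this border was known from these same libraries when the comparison was drawn up, so the test of that step is not independent evidence of it.

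The fry were genotyped at markers AQ-HOXDB_6 and AQ-HOXDB_7, which start at positions 16021998 and 16022048 of chromosome 6 in the study's own Apeltes assembly. Both positions lie between the HOXD11B variant and the HOXD9B variants described below. The primers of these markers are shown because they define the H carriers and the L/LHR fish and because they place the genotype inside the region with the largest difference between the spines. They are written 5′ to 3′ in lower case, and no part is marked.
AQ-HOXDB_6F: cagctgctcttaatgtcgcc
AQ-HOXDB_6R: caaagagggagagcagacgg
AQ-HOXDB_7F: gctgtgacttgtttcaaatgcc
AQ-HOXDB_7R: taagtggctcgcgtttaccg

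The deposited values are counts of reads of each allele at single-nucleotide sites, so a region is seen only through its variable sites and a read counts at each listed site it covers. Levels are sums over sites in fixed 10-kb bins, per M (mega) allele-counted reads of the library (RPM). DS3 libraries held 5.0 to 39.2 M such reads with a median of 31.4 M, and DS2 libraries held 14.3 to 39.3 M with a median of 32.2 M. DS3 of L/LHR replicate 2 stood apart, with 5.0 M reads, 25.7% of them at its 200 deepest sites and a TMM factor of 0.510, which scales a library for its composition. The other 10 DS3 libraries held at least 22.6 M reads and had factors between 0.846 and 1.22. At 7983 sites where the fish differ in genotype, 22 of 22 libraries were closest to the other libraries of their labelled fish. The labels give no sequencing batch. The files hold no gene names, so the labelled tissue could not be checked against marker genes and regions other than HOXDB are named by position.

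DS3 and DS2 were close to each other over most of the genome. A log2 change between -0.5 and 0.5 was found in 97.8% of the 20171 bins tested, and one between -1 and 1 in 99.8%. With edgeR's quasi-likelihood test, fish as a block and Benjamini-Hochberg adjustment, 3 bins passed a false discovery rate (FDR) of 0.05 (0.0149% of those tested). The only bin called higher in DS3 (0.00496%) holds sites of HOXD11B and HOXD9B, and the 2 bins called lower (0.00992%) lie on chromosomes 7 and 1. At an unadjusted p under 0.05 there were 784 bins (3.89%). Without the shallow DS3 library of L/LHR replicate 2 and its DS2 pair, 9 bins were called, 5 higher and 4 lower, including all 3 of these.

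**Figure D1:**
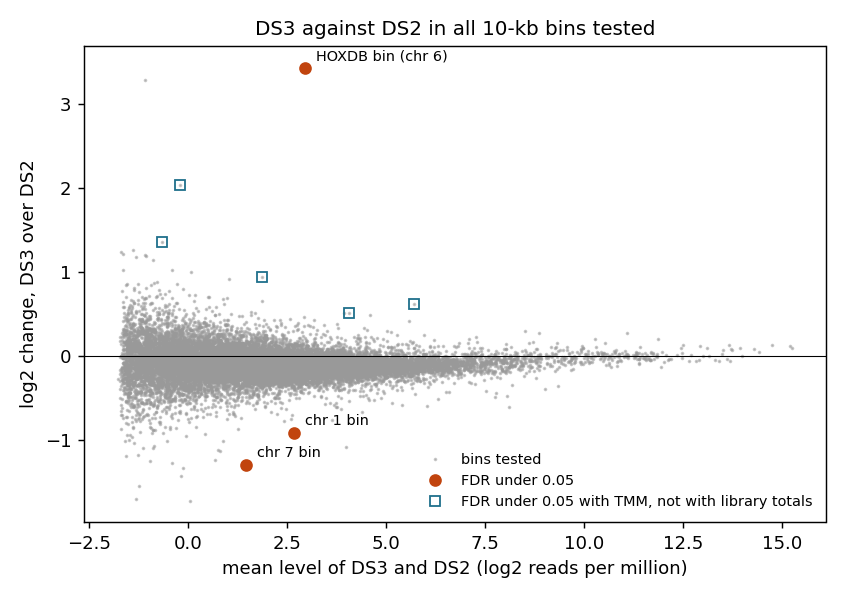
Each point is a 10-kb bin, with its mean level in DS3 and DS2 on the x axis (log2 RPM) and its log2 change, DS3 over DS2, on the y axis. Filled circles are the 3 bins past an FDR of 0.05, and open squares are 5 bins that passed it with TMM factors but not with library totals in the same fit. The HOXDB bin lies at 3.43, while 99.8% of bins lie between -1 and 1.

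The median log2 change of all bins was -0.10 with scaling to library totals and 0.00 with TMM factors, a shift of 0.0975. The DS3 library that stood apart had the lowest TMM factor of all 22. Bins higher in DS3 in 11 of 11 fish numbered 7 (0.0347%), and bins lower in 11 of 11 fish numbered 46 (0.228%), both counted with library totals. A level higher in DS3 by over 8-fold was found in 2 bins. One was the HOXDB bin, and the other, on chromosome 4, was higher in 3 of 11 fish only and did not pass the test.

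The HOXDB bin, chr6:16020001-16030000, held 59 sites and showed the largest step between the spines. Its level in the 11 fish was 5.39 to 24.5 RPM in DS3 with a median of 12.6, against 0.203 to 3.41 RPM in DS2 with a median of 1.30. The lowest DS3 library was above the highest DS2 library. It averaged 14.1 ± 6.06 RPM in DS3 and 1.43 ± 0.974 RPM in DS2 (SD, n = 11 each), a fitted 10.8-fold difference (log2 change 3.43, FDR 1.66e-08, edgeR's quasi-likelihood test). The log2 change within a fish was 3.57 ± 0.76 (SD, n = 11), between 2.56 and 4.87, and DS3 was higher in 11 of 11 fish. The values rest on 106 to 769 reads in a DS3 library and 8 to 96 reads in a DS2 library, 4142 and 505 in all. The log2 change was 3.41 without L/LHR replicate 2, and 3.32 to 3.54 with any 1 fish left out. In tissue of mixed cells, more cells that express a gene and more RNA per cell cannot be told apart.

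**Figure D2:**
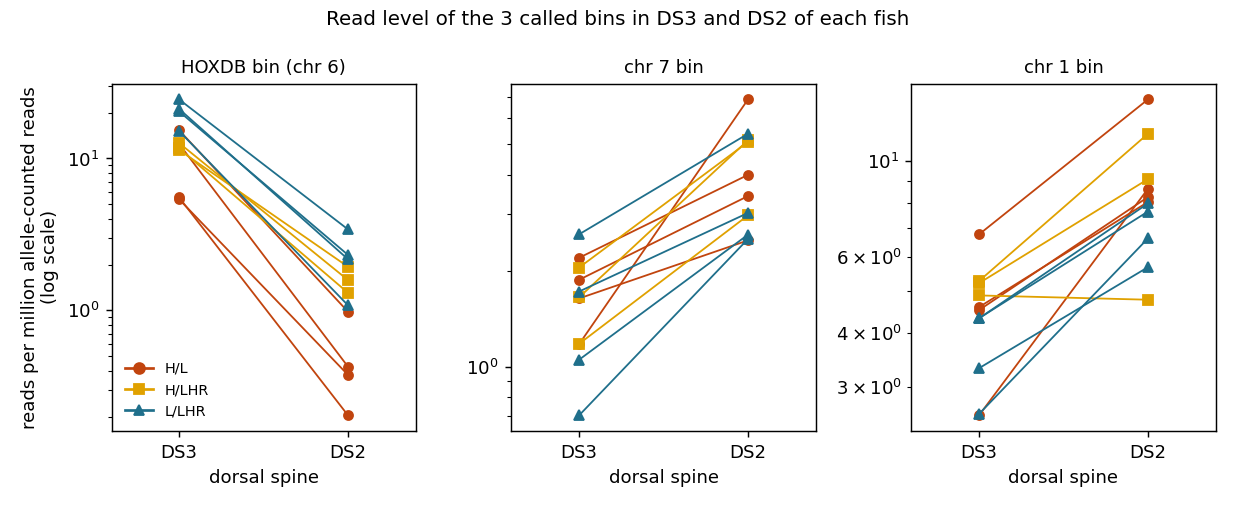
Level of the 3 called bins in DS3 (left) and DS2 (right) of each fish, in RPM on a log scale, with a line for each of the 11 fish and colour and symbol for its genotype. The HOXDB bin is higher in DS3 in 11 of 11 fish, the chromosome 7 bin is lower in 11 of 11, and the chromosome 1 bin is lower in 10 of 11.

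Among the tested bins of the interval that the study's 12 association markers span, only the HOXDB bin was called. The 4 other tested bins of that interval start at 16000001, 16010001, 16040001 and 16050001 on chromosome 6 and had log2 changes of -0.13, -0.14, 0.04 and -0.02 (FDR 0.901 to 0.975, edgeR's quasi-likelihood test). They were well covered, with mean levels of 7.38 to 12.4 RPM in DS3 and 7.82 to 11.9 RPM in DS2. The bin starting at 16010001 also holds sites within 3 kb of the HOXD11B variant described below, all with higher mean levels in DS3. They hold few of its reads. Position 16019019 had 149 reads in DS3 and 11 in DS2, among 2549 and 2756 in the whole bin. The bin from 16030001 to 16040000 had 16 reads in DS3 and 9 in DS2 and was not tested. The study counts HOXD4B in this cluster too. In fish with few spines it lists HOXD4B and HOX genes of other clusters as differing between the first dorsal spine and DS3. The bins of those genes were not identified here, so their step from DS2 to DS3 is not described. When the bins were moved by 5 kb, the signal split between 2 bins, chr6:16015001-16025000 with a log2 change of 4.20 (FDR 1.64e-06) and chr6:16025001-16035000 with 3.25 (FDR 2.78e-08).

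Within the HOXDB bin, 19 sites lie on the side of HOXD11B and 40 on the side of HOXD9B, and both sides were higher in DS3 in 11 of 11 fish. The HOXD9B side averaged 11.3 ± 4.87 RPM in DS3 and 1.26 ± 0.764 RPM in DS2 (SD, n = 11 each), a ratio of 8.97. The HOXD11B side averaged 2.85 ± 1.64 RPM in DS3 and 0.175 ± 0.247 RPM in DS2, a ratio of 16.3. For each side DS3 and DS2 did not overlap, and p was 0.000977 (two-sided exact permutation test with signs flipped within fish), the smallest that 11 pairs can give. HOXD11B contributed a larger share of the bin's reads in DS3 than in DS2. That share was 19.8% ± 5.66 in DS3 (9.43% to 27.8%) and 7.73% ± 8.68 in DS2 (0% to 22.9%), higher in DS3 in 11 of 11 fish (two-sided exact permutation test, p = 0.000977). The DS2 shares are imprecise, since 5 DS2 libraries had 0 reads on the HOXD11B side and the 11 libraries together had 63, against 896 reads in DS3. The first dorsal spine (DS1) had 21 reads on the HOXD11B side and 19 on the HOXD9B side. In these sums the HOXD11B side held more reads than the HOXD9B side, unlike in DS2 and DS3. The share thus did not fall further in DS1, where it rests on few reads. The 2 sides have different numbers of variable sites, so their levels are not a comparison of the genes per length.

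Single sites divide these same reads, so they describe the step and are not further evidence of it. Over all listed sites within 3 kb of the named variants, 25 of 27 on the HOXD11B side had reads in these libraries and the mean level of all 25 was higher in DS3. On the HOXD9B side all 40 of 40 were higher. Of the listed sites, 12 of 27 on the HOXD11B side and 4 of 40 on the HOXD9B side had 0 reads in DS2. Those of them with reads could only be higher in DS3. Each site with reads from position 16022901 to 16023045 had 1 read in DS3, in 1 fish. Among sites with at least 20 reads in DS3 and at least 3 in DS2, the ratio of mean levels lay between 9.95 and 21.9 at 9 HOXD11B sites and between 4.58 and 13.9 at 28 HOXD9B sites. Because this filter asks for more reads in DS3 than in DS2, it favours sites with a high ratio. Neighbouring sites share reads and do not count as independent measurements.

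**Figure D3:**
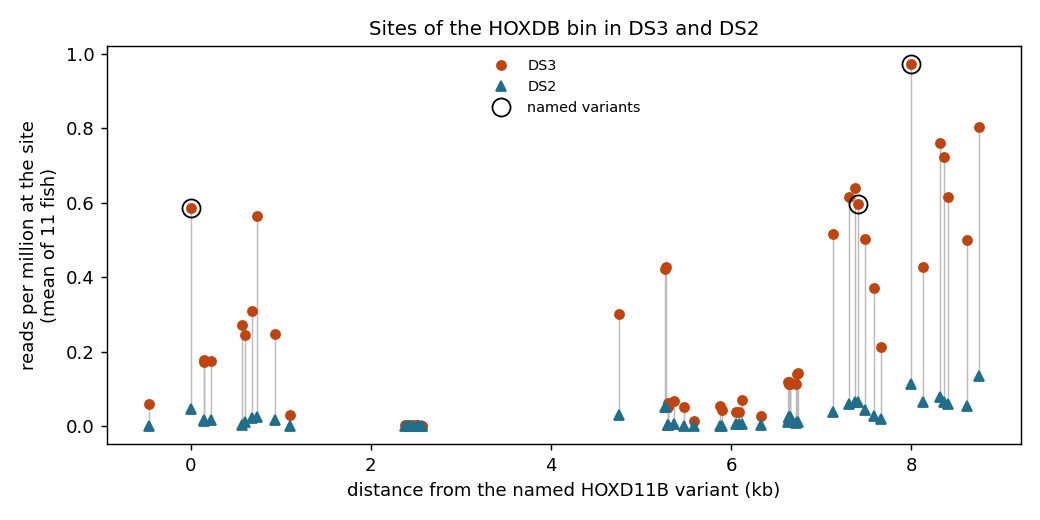
Mean level of the sites of the HOXDB bin over 11 fish (RPM, y axis) in DS3 (circles) and DS2 (triangles), by distance from the HOXD11B variant at 0 kb on the x axis. Vertical lines join the 2 values of a site, and rings mark the 3 named variants. The HOXD11B variant averages 0.585 RPM in DS3 and 0.0462 RPM in DS2.

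The study places 3 variants that separate the haplotypes in 3′ untranslated regions of these genes, and all 3 were higher in DS3 in 11 of 11 fish. At the HOXD11B variant (chr6:16020516) DS3 had 0.137 to 1.11 RPM with a median of 0.539, against 0 to 0.142 RPM in DS2 with a median of 0. DS2 had no read there in 6 of 11 fish, and the ranges of the spines overlapped slightly. The sums over fish were 177 reads in DS3 and 17 in DS2, and the means were 0.585 ± 0.275 RPM in DS3 and 0.0462 ± 0.0625 RPM in DS2. At the HOXD9B variant chr6:16027923 the means were 0.597 ± 0.217 RPM in DS3 and 0.0656 ± 0.0621 RPM in DS2, from 185 and 25 reads. At the HOXD9B variant chr6:16028519 they were 0.973 ± 0.371 RPM in DS3 and 0.114 ± 0.0837 RPM in DS2, from 294 and 40 reads (SD, n = 11 each). At the 2 HOXD9B variants the spines did not overlap. The two-sided exact permutation test with signs flipped within fish gave p = 0.000977 at each of the 3 variants, also after adjustment over the 3, which is the smallest it can give.

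The step was present in each genotype. In H/L fish the HOXDB bin had 5.39, 5.54, 15.3 and 12.5 RPM in DS3 of replicates 1 to 4, against 0.376, 0.203, 0.979 and 0.425 RPM in DS2. H/LHR fish had 12.6, 11.7 and 11.4 RPM in DS3, against 1.58, 1.30 and 1.94 RPM in DS2. L/LHR fish had 15.1, 21.2, 20.4 and 24.5 RPM in DS3, against 1.08, 2.17, 2.32 and 3.41 RPM in DS2. Thus all 4 H/L fish had under 1 RPM in DS2 and no other fish did, although these H/L libraries hold only 8 to 14 reads of the bin. When each genotype was fitted alone, the log2 change was 4.36 for H/L (FDR 2.52e-04), 2.89 for H/LHR (FDR 0.00146) and 3.26 for L/LHR (FDR 0.00286, edgeR's quasi-likelihood test). No other bin was called in any genotype alone.

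H carriers (H/L and H/LHR, n = 7) had a lower mean level of the HOXDB bin than L/LHR fish (n = 4) in both spines. In DS3 the means were 10.6 ± 3.75 RPM in H carriers and 20.3 ± 3.86 RPM in L/LHR fish (two-sided exact permutation test over 330 arrangements, p = 0.00606, adjusted p over 3 tests 0.0182). In DS2 they were 0.972 ± 0.665 RPM in H carriers and 2.24 ± 0.953 RPM in L/LHR fish (exact permutation test, p = 0.0273, adjusted p = 0.0409). The DS2 values of H/LHR fish, 1.30 to 1.94 RPM, lay within the 1.08 to 3.41 RPM of L/LHR fish. Without L/LHR replicate 2, chosen after the data had been seen, the adjusted p was 0.05 in DS3, with 20.0 ± 4.67 RPM in L/LHR fish, and 0.075 in DS2, with 2.27 ± 1.17 RPM (exact permutation tests over 120 arrangements). The size of the step was not shown to differ between the pooled H carriers and L/LHR fish. The log2 change was 3.74 ± 0.88 in H carriers and 3.27 ± 0.41 in L/LHR fish, a difference of 0.47 (exact permutation test, p = 0.352). In the fit across all bins the interaction of the HOXDB bin was 0.38 (FDR 0.845, edgeR's quasi-likelihood test). Per fish the log2 change lay between 3.84 and 4.87 in H/L, between 2.56 and 3.16 in H/LHR and between 2.84 and 3.81 in L/LHR. Each H/L value was thus above those of all H/LHR and L/LHR fish. The H carriers therefore pool the genotypes with the highest and the lowest mean step. The difference of H/L from the other genotypes was not tested, and H/L values rest on few DS2 reads. Genotype and family cannot be told apart here, since the clutches are not known.

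Over all bins, the same interaction asked whether any region changed differently between the spines in H carriers and in L/LHR fish. It called 0 of 20171 bins with edgeR's quasi-likelihood test (0.0%), with 487 at an unadjusted p under 0.05 (2.41%). DESeq2 called 0 as well, with 648 at an unadjusted p under 0.05. The median interaction was 0.24 with library totals and 0.00 with TMM factors, and the shallow DS3 library belongs to the L/LHR group.

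Reads of the haplotypes were counted at the variants to ask whether the increase came from both copies of the genes. At the HOXD9B variant of H/LHR fish, LHR had 47 reads in DS3 and 15 in DS2, while H had 2 reads in DS3 and 0 in DS2. The share of H was thus 4.08% in DS3 (2 of 49 reads, exact 95% binomial interval 0.498% to 14.0%) and 0% in DS2 (0 of 15 reads, exact 95% binomial interval 0% to 21.8%). Fisher's exact test did not separate the spines at this depth (p = 1). Such intervals, and limits set as the share that 3 reads would make, account for counting error alone, because PCR copies of a molecule can be counted as separate reads. This was the only haplotype comparison with at least 12 reads in each spine, the minimum set for a call.

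In H/L fish the HOXD9B variant gave 69 L reads in DS3 and 2 in DS2, and 7 H reads in DS3 and 0 in DS2. The L level was 0.609 ± 0.310 RPM in DS3 and 0.0257 ± 0.0333 RPM in DS2 (SD, n = 4 each), higher in DS3 in 4 of 4 fish. At HOXD11B the L haplotype had 41 reads in DS3 and 0 in DS2 of H/L fish, and H had 0 in both spines, a limit of 7.32% for H in DS3 (3 reads of 41). In H/LHR fish HOXD11B had 47 LHR reads in DS3 and 5 in DS2, all 5 from replicate 3, and 1 H read in DS3 and 0 in DS2. No H read was therefore seen at these variants in DS2 of any H carrier, where the other haplotype had 0 to 15 reads per variant, summed over the fish of a genotype. Other informative sites did hold H reads. Over all informative HOXD9B sites H had 1 of 13 site reads in DS2 of H/L fish and 2 of 67 in H/LHR fish. Over those of HOXD11B it had 7 of 163 site reads in DS3 of H/L fish, whose DS2 had 0 site reads.

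Summed over the L/LHR fish, both haplotypes of HOXD9B were read in both spines. At chr6:16027923 L had 37 reads in DS3 and 2 in DS2. LHR had 40 in DS3 and 6 in DS2, too few in DS2 for a call. Both L reads in DS2 came from replicate 3, which had 0 LHR reads there. In DS3, L and LHR reads of replicates 1 to 4 were 15 and 5, 0 and 2, 14 and 12, and 8 and 21. An alternative chosen after the data had been seen summed all informative sites of a gene, where 1 read can count several times. For HOXD9B the L share of L/LHR fish was 51.8% in DS3 (48.2% to 55.5%, 733 site reads) and 39.4% in DS2 (30.2% to 49.3%, 109 site reads). The HOXD9B share of H in H/LHR fish was 12.1% in DS3 and 2.99% in DS2. Neither passed after adjustment (Fisher's exact test, p = 0.0181 and 0.0258, adjusted p = 0.0645 for both). The HOXD9B share of H in H/L fish was 9.63% in DS3 (218 site reads) and 7.69% in DS2 (13 site reads). For HOXD11B in H/LHR fish the H share was 4.24% in DS3 (236 site reads) and 0% in DS2 (15 site reads). These comparisons were not called either. These shares, intervals and tests sum reads over fish and leave out the spread between fish. In the scan of allele ratios over all sites, 9 sites of the HOXDB bin could be tested and 0 were called by edgeR's quasi-likelihood test (log2 changes of -1.97 to 0.51), with 1 at an unadjusted p under 0.05. Over all sites tested 0.0731% were called, so 0 of 9 does not set these sites apart. The alternate allele need not mark the same haplotype in each genotype. At chr6:16028519 it marks H in H/L fish and LHR in L/LHR fish, so the change there does not follow 1 haplotype.

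Set among all dissected tissues, the HOXDB bin averaged 0.0994 RPM in DS1, 1.43 in DS2, 14.1 in DS3, 22.2 in DS4 (n = 8), 21.03 in the blank pterygiophore (Pter), 43.0 in the last dorsal spine (DSL), 13.1 in the dorsal fin (DF) and 13.3 in the anal fin (AF), with n = 11 unless given. DS3 thus stood near the level of the median fins, and DS2 between DS1 and DS3. DS4 libraries came from the H carriers and, among L/LHR fish, from replicate 1 alone. The DS4 means here and below are therefore not matched in genotype to the other tissues. The HOXD9B side alone averaged 0.0448 RPM in DS1, 1.26 in DS2 and 11.3 in DS3, and the HOXD11B side 0.0545 RPM in DS1, 0.175 in DS2 and 2.85 in DS3. Between the ends of the row, DSL over DS1, a comparison that shares no library with DS3 and DS2, 81 of 20207 bins were called (0.401%), 58 of them higher in DSL (0.287%). The HOXDB bin ranked first by p with a log2 change of 8.45 (FDR 1.04e-09, edgeR's quasi-likelihood test).

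**Figure D4:**
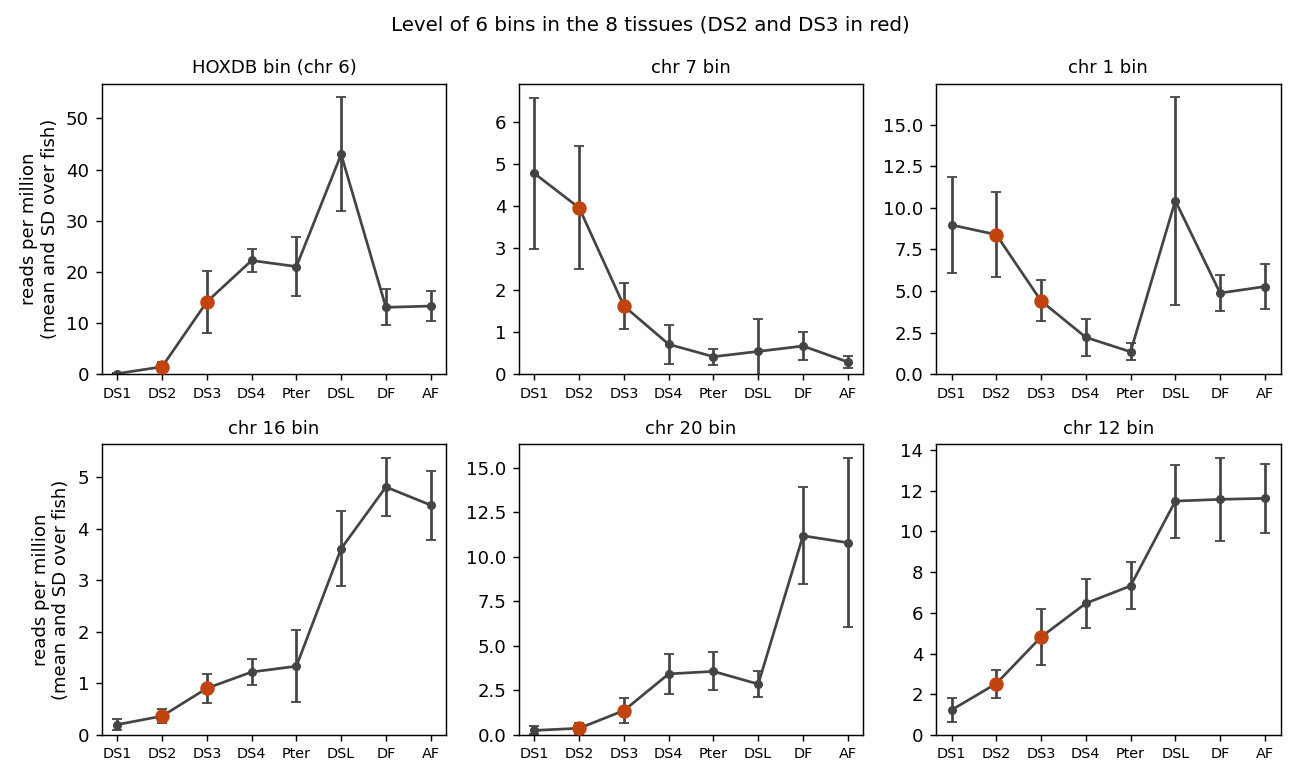
Mean level (RPM, y axis) of 6 bins in the 8 tissues from DS1 to AF (x axis), with bars of 1 SD over fish (n = 11, DS4 n = 8) and DS2 and DS3 in red. The HOXDB bin averages 14.1 RPM in DS3 and 1.43 RPM in DS2, and the chromosome 7 bin averages 1.62 RPM in DS3 and 3.95 RPM in DS2.

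The bin chr7:1620001-1630000, with 7 sites, fell in DS3. Its level was 0.702 to 2.60 RPM in DS3 with a median of 1.65, against 2.49 to 6.88 RPM in DS2 with a median of 3.43. DS3 was lower in 11 of 11 fish, although the highest DS3 value lay just above the lowest DS2 value. The means were 1.62 ± 0.557 RPM in DS3 and 3.95 ± 1.46 RPM in DS2 (SD, n = 11 each), a fitted ratio of 0.409 (log2 change -1.29, FDR 0.00577, edgeR's quasi-likelihood test). With any 1 fish left out the log2 change was -1.36 to -1.16 and the bin stayed called. It was not called in any genotype alone, where the log2 change was -1.23 for H/L, -1.42 for H/LHR and -1.25 for L/LHR.

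From DS1 to DS4 the mean level of this bin went down where that of HOXDB went up, and beyond DS4 the 2 courses were not always opposite. It averaged 4.77 RPM in DS1, 3.95 in DS2, 1.62 in DS3, 0.709 in DS4 and 0.414 in Pter, then 0.540 in DSL, 0.668 in DF and 0.289 in AF. The DSL values had an SD of 0.778 RPM and a highest value of 2.72 RPM. Their median of 0.269 RPM lay below the Pter median of 0.392 RPM, unlike the means. DSL was lower than DS1, with a log2 change of -3.66 (FDR 4.09e-04, edgeR's quasi-likelihood test). Which gene the 7 sites belong to was not given in the sources used here.

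The bin chr1:7090001-7100000, with 17 sites, was lower in DS3 in 10 of 11 fish and was named after its values were seen, since the naming rule asked for 11 of 11. It had 2.58 to 6.77 RPM in DS3 with a median of 4.52, against 4.78 to 13.9 RPM in DS2 with a median of 8.05, and the ranges overlapped. The means were 4.40 ± 1.23 RPM in DS3 and 8.39 ± 2.56 RPM in DS2 (log2 change -0.91, FDR 0.0152, edgeR's quasi-likelihood test). The call was lost in 7 of the 11 fits with 1 fish left out (FDR up to 0.0833, without H/LHR replicate 1). It was also lost with 1 site per 300 bases, which counts a read fewer times (log2 change -0.66, FDR 0.0931), and with sites listed in all 22 libraries (log2 change -0.60, FDR 0.622). Unlike the chromosome 7 bin it did not differ between the ends of the row (DSL over DS1, log2 change 0.13, FDR 0.993). It averaged 8.97 RPM in DS1, 2.21 in DS4, 1.34 in Pter and 10.4 in DSL, so its lowest mean was in Pter.

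Further bins missed the FDR of 0.05 with library totals and passed it with TMM factors, which called 8 bins (0.0397%), 6 of them higher in DS3 (0.0297%). These are named after their values were seen. The bin chr16:9100001-9110000 averaged 0.905 ± 0.285 RPM in DS3 and 0.364 ± 0.140 RPM in DS2, higher in DS3 in 11 of 11 fish (log2 change 1.35, FDR 0.0504, and 0.0167 with TMM, edgeR's quasi-likelihood test). The bin chr20:9580001-9590000 averaged 1.37 ± 0.679 RPM in DS3 and 0.372 ± 0.317 RPM in DS2, also higher in 11 of 11 (log2 change 2.04, FDR 0.0504, and 0.0192 with TMM). Both rest on few reads, 292 in DS3 and 121 in DS2 for the first and 428 in DS3 and 123 in DS2 for the second. The bin chr12:10250001-10260000 averaged 4.81 ± 1.37 RPM in DS3 and 2.52 ± 0.692 RPM in DS2 (log2 change 0.94, FDR 0.279, and 0.0167 with TMM), higher in 10 of 11 fish.

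These 3 bins were also higher in DSL than in DS1, with log2 changes of 3.94 on chromosome 16, 3.86 on chromosome 20 and 3.14 on chromosome 12 (FDR 9.62e-09, 9.56e-05 and 7.12e-08, edgeR's quasi-likelihood test). Unlike HOXDB, the chromosome 20 bin was highest in the median fins, with 11.2 RPM in DF and 10.8 RPM in AF against 2.85 RPM in DSL. The chromosome 16 bin likewise averaged 4.82 RPM in DF, 4.46 RPM in AF and 3.62 RPM in DSL. The adjacent bins chr21:5040001-5050000 and chr21:5050001-5060000 had smaller differences, with log2 changes of 0.62 and 0.52 (FDR 0.402 and 0.899, and 0.00814 and 0.0148 with TMM). For DSL over DS1 their log2 changes were 0.92 and 0.87 (FDR 0.226 and 0.00293, edgeR's quasi-likelihood test), so only the second was called there. The 1 fish in which the chromosome 12 and both chromosome 21 bins were lower in DS3 was L/LHR replicate 2, whose DS3 library stood apart.

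The bin chr1:2600001-2610000 was next by p. It averaged 4.57 ± 1.26 RPM in DS3 and 7.65 ± 1.71 RPM in DS2, lower in DS3 in 11 of 11 fish, and did not pass the test (log2 change -0.75, FDR 0.0703, edgeR's quasi-likelihood test). Without L/LHR replicate 2 it did (FDR 0.0483).

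The ratio of the alternate to the reference allele was compared between the spines at sites heterozygous in at least 4 fish. Of 27359 such sites, 20 passed an FDR of 0.05 (0.0731%), 8 with a higher and 12 with a lower alternate share in DS3, and 1106 had an unadjusted p under 0.05 (4.04%, edgeR's quasi-likelihood test with fish as a block). The calls formed 8 loci, of which 6 were single sites, and 14 of the 20 calls lay in the 2 others. Without the block 0 sites were called, with 689 at an unadjusted p under 0.05. Heterozygous here rests on the read shares in the other tissues of a fish and not on a genotype from DNA. Some of these fish may therefore not be heterozygous at a called site. Whether the reads of both alleles come from the same place in the genome was not tested.

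The smallest p belonged to chr19:2415487-2419746, where all 3 sites tested were called. Positions 2419737 and 2419746 are neighbours, so the same reads can cover both. At position 2415487 the alternate share was higher in DS3 in 9 of 11 fish and lower in 2. At the top site of the locus, position 2419746, the alternate share was 86.3% to 96.4% in DS3 and 78.4% to 89.8% in DS2, and DS3 was higher in 8 of 8 heterozygous fish. The means were 91.0% ± 3.22 in DS3 and 86.9% ± 3.76 in DS2 (SD, n = 8 fish), from 5801 to 16486 reads per library (FDR 5.91e-10, edgeR's quasi-likelihood test). The difference is small and the ranges overlap, but the depth is high. The fish with the largest depth gap is L/LHR replicate 2, and without it the log2 change was 0.53, against 0.66 with it.

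On chromosome 11, 11 of 119 sites tested between 7293096 and 7297457 were called, 10 with a lower and 1 with a higher alternate share in DS3. The site with the higher share, position 7294439, had a log2 change of 0.92. The called site beside it, position 7294438, had -0.89. At the top site, position 7296507, the share was 83.8% ± 9.53 in DS3 and 89.4% ± 7.28 in DS2 (SD, n = 10 fish), lower in DS3 in 10 of 10 (FDR 2.37e-04, edgeR's quasi-likelihood test). The largest differences were 62.1% in DS3 against 80.5% in DS2 of L/LHR replicate 3 and 81.7% in DS3 against 96.6% in DS2 of H/L replicate 1. Both spines kept the same major allele in all 10 fish.

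At position 19698222 of chromosome 2 the alternate share was 35.6% ± 10.1 in DS3 and 26.7% ± 9.04 in DS2, higher in DS3 in 9 of 11 fish (FDR 0.0185, edgeR's quasi-likelihood test). Leaving out 1 fish ended this call in 5 of 11 fits, with an FDR up to 0.111. The other 2 named loci are single sites on unplaced sequence. Position 5750168 rests on H/LHR replicate 3, whose DS2 library had 6 alternate reads of 530 while its DS3 library had 6 of 8, and without that fish the FDR was 0.786. Position 17744507 was lower in DS3 in 2 of the 4 heterozygous fish (0% in DS3 against 24.7% and 27.6% in DS2), while H/LHR replicate 3 had 0% in both spines and H/L replicate 1 had 12.9% in DS3 and 12.7% in DS2. Its means were 3.23% ± 6.45 in DS3 and 16.2% ± 12.6 in DS2 (FDR 0.0165). No gene is named for these loci in the sources used here.

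**Figure D5:**
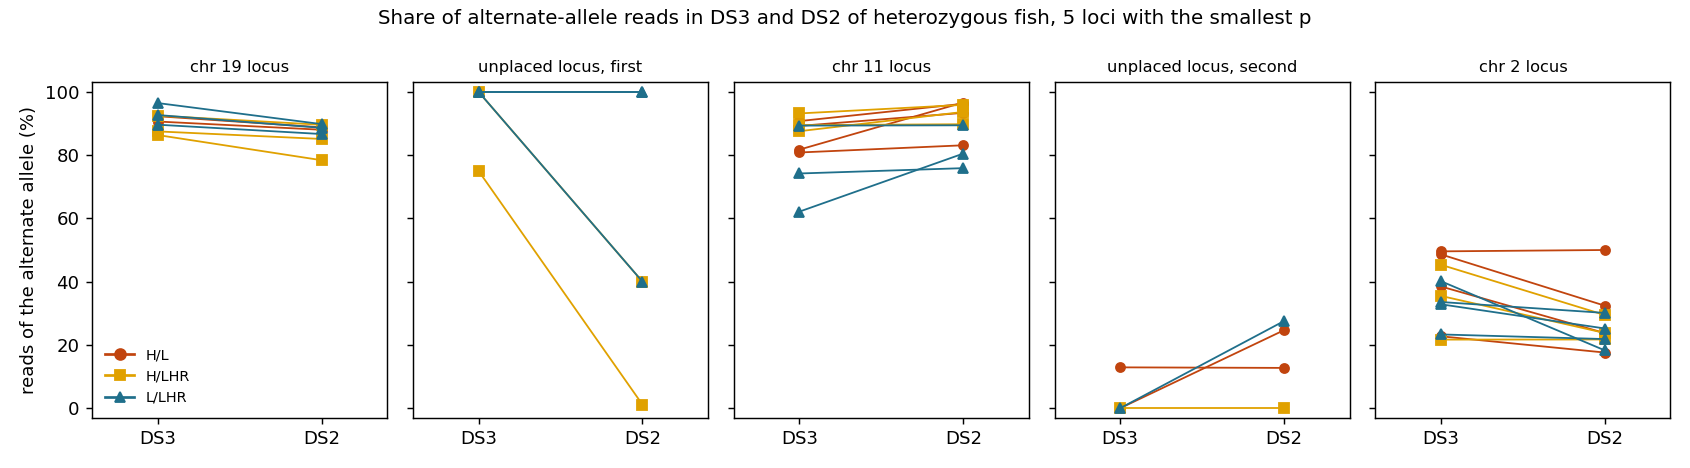
Share of reads from the alternate allele (%, y axis) in DS3 and DS2 (x axis) of each heterozygous fish at the top site of 5 loci, with a line for each fish and colour for its genotype. The chromosome 19 site is higher in DS3 in 8 of 8 fish and the chromosome 11 site is lower in 10 of 10, while the first unplaced site rests on 1 fish at 1.13% in DS2.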

How the data were processed

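RNA was taken from dissected tissues of 11 fry, and stranded mRNA libraries were made from 20 to 100 ng. Trim Galore with cutadapt 2.4 was used by the authors for trimming, per the labels, and STAR in 2-pass mode for mapping. They called variants with GATK 4.1.4.1. The reference was an assembly of a Louisbourg fish scaffolded along Gasterosteus with RaGOO. The deposited values are raw counts of reference and alternate reads per site and library from GATK's ASEReadCounter, with no normalization. FastQC 0.11.9, Picard 2.23.4 and SAMtools 1.10 are named as well. Whether duplicate reads were removed was not given in the sources used here, and mapping to 1 haplotype can favour the reference allele.

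Counts of both alleles were summed in 10-kb bins with a mean count of at least 10 and fitted with edgeR 4.0.16 in R 4.3.3 (quasi-likelihood F-test, terms for fish and tissue, library total as scaling). Allele counts were fitted with a term per library and allele by fish terms. A site counted as heterozygous in a fish with at least 20 reads and a minor share of at least 10% over its other tissues, and needed at least 10 reads over the pair of spines in at least 4 fish. Fish is the block because both spines come from the same animal. Deviations of DS3 and DS2 of a fish correlated at 0.28 to 0.77 over 11610 bins, with a median of 0.65, against -0.09 for different fish. The scripts were tested on simulated data. Alternatives were TMM and DESeq2 size factors, DESeq2 1.42.0, other filters, bins and sites, no block, single genotypes and leaving out each fish. Python 3.11.15, numpy 2.4.6, pandas 2.3.3, scipy 1.17.1 and matplotlib 3.10.9 were used.

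Named regions were the HOXDB interval and its 3 variants, up to 10 loci in each direction past the FDR that moved 1 way in 11 of 11 fish, up to 5 allele-ratio loci and up to 5 interaction bins. Others are marked in the text. The members and lists were chosen with earlier results of these data known. No reference genome or annotation was used.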

Additional observations from a re-analysis of the deposited data

Results flagged for a closer look

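Values of the 3 called bins, levels of the 3 HOXDB variants and read totals of the libraries were examined within genotypes of 4 fish. A sample far from the others was sought in 33 groups of values, and 2 were found. Chance gives about 1 in 20 groups. The read total of DS3 of L/LHR replicate 2, 5.0 M against 25.0 to 34.2 M in the other L/LHR fish, was not flagged by this rule. In the chromosome 1 bin starting at 7090001, DS2 of H/L replicate 3 had 13.9 RPM, while the other 3 H/L fish had 8.05 to 8.64 RPM. In the chromosome 7 bin starting at 1620001, the log2 change of DS3 over DS2 was -2.55 in H/L replicate 1, while the other 3 H/L fish had -0.87 to -0.61. Without that fish the fitted log2 change of the bin was -1.16 and the bin was still called (FDR 0.00585, edgeR's quasi-likelihood test).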

How the results depend on the processing

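The HOXDB bin kept its direction and its call in every alternative that gave it a value, with log2 changes of 2.89 to 4.36. It held no site listed in all 22 libraries and so had no value there. The number of called bins depended on the scaling and on the test. In edgeR it was 3 with library totals, 8 with TMM factors and 8 with DESeq2 size factors (6 higher and 2 lower each, including the 3). DESeq2, with its own test and those size factors, called 32 (21 higher, 11 lower). In edgeR it was 6 with bins moved by 5 kb (3 higher, 3 lower), 1 in each genotype alone (HOXDB), and 1 with sites listed in all 22 libraries (chromosome 7). Leaving out 1 fish gave 2 to 9 bins, with 9 only without L/LHR replicate 2. The interaction stayed at 0 in each alternative run.

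Allele-ratio calls were less stable. Against 20 calls there were 7 at an FDR of 0.01, 3 with at least 20 reads per fish, 3 with at least 6 fish, 95 with no minimum of reads and 161 with the Mantel-Haenszel test, which has no term for extra spread between libraries. Leaving out 1 fish gave 10 to 39 calls, with 10 without H/L replicate 1 or H/LHR replicate 3, 11 without H/L replicate 2 and 39 without L/LHR replicate 1. At the called site at position 2958470 of chromosome 15, leaving out 1 fish gave log2 changes of -0.0759 to 3.45, with -0.0759 without L/LHR replicate 1. The causes were not tested.

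Without the fish block the fits gave 3 bins (2 of the 3 kept, the chromosome 1 bin lost at an FDR of 0.0955), 0 interaction bins, 0 allele-ratio sites and 60 bins for DSL over DS1, against 81 with the block. At the 3 HOXDB variants the difference was 0.539, 0.532 and 0.859 RPM without the block (permutation p of at most 8.51e-06). The H share at HOXD9B in H/LHR fish had a log2 change of 0.35, which became -1.06 with 0.5 in place of each count of 0 and 2.16 over all informative sites. At 0 H reads in DS2 its direction is not determined, and depth limits every haplotype comparison in DS2.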
